A study of Mus musculus with 6 samples.

Results

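Interferon-stimulated genes are the genes that cells switch on when interferons bind their receptors, and 40 of them, with the transcription factors that drive them, were followed here in the inflamed mouse colon. They were chosen by gene symbol from the deposited table, which lists 27202 genes, and all 40 were found and passed the filter on low values. Whole colon was sequenced from 3 mice that lack Nedd4l in the intestinal epithelium (Nedd4l fl/fl Villin Cre), called cKO as in the sample names, and from 3 littermates with the floxed alleles alone (Nedd4l fl/fl), called WT. Both groups were on a C57BL/6J background, carried the floxed alleles, were 8 to 10 weeks old and drank 2% dextran sulfate sodium (DSS), a chemical that damages the lining of the colon and sets off colitis, until day 7. Each library is taken here as 1 mouse, and since the labels do not say how tissue was pooled, p-values measure the spread between these libraries only. All samples analysed had received DSS, so each difference below is between genotypes under DSS. Cre was driven by the Villin promoter, which is active in intestinal epithelial cells, whereas the tissue sequenced also holds immune, stromal and muscle cells. In such bulk tissue, fewer cells of a type and less RNA per cell cannot be told apart.

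Type I and type III interferons signal through receptors bound by JAK1 and TYK2 and act through a complex that includes STAT2 and IRF9 and binds the interferon-stimulated response element (ISRE). Interferon gamma signals through JAK1 and JAK2 and acts through a DNA element called the gamma-activated site (GAS). Antiviral genes such as the IFIT, OAS and MX families are classical targets of the first route, and the guanylate-binding proteins and immunity-related GTPases are classical targets of the second, with much overlap. In the gut these genes are induced in epithelial and in immune cells during infection and colitis.

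The values are normalized counts, that is, read counts of each gene after scaling by a size factor for the library. Counted in the smallest value of each library, the libraries summed to between 14914367 and 17547270. Over the genes tested, the library cKO2 had a mean correlation of 0.977 with the WT libraries and of 0.966 with the other cKO libraries. In the same order the values were 0.948 and 0.963 for cKO1, and 0.973 and 0.975 for cKO3. Thus cKO1 had the lowest mean correlation both with its own group and with the other. The targeted gene Nedd4l had normalized counts of 476, 942 and 566 in cKO1, cKO2 and cKO3 and of 1241, 1271 and 1266 in WT1, WT2 and WT3. Its log2 difference was −0.99 (standard error 0.24, adjusted p = 0.225, limma), and −1.28 without cKO2 (adjusted p = 0.0130, limma). Differences between genotypes are given throughout as cKO minus WT on the scale of log2(normalized count + 1), which understates the change of low genes. They were tested with limma over the 16246 genes with a mean normalized count of at least 10, with Benjamini-Hochberg adjustment.

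The promoters of the members were searched for the letters of these 2 elements. RefSeq windows on GRCm38.p6, from 250 bases before to 50 after the start site, were at hand for 29 of the 40 members. The ISRE-like letters GAAANNGAA were found on either strand in 18 of these 29 members (62.1%), against 9.76% of all 27025 genes with a window. The GAS-like letters TTCNNNGAA were found in 9 of 29 (31.0%), against 9.55%. Matches of both kinds overlapped in 1 of the 34 member windows. The 45-base stretches below are written 5′ to 3′ along the gene's strand, with ISRE-like letters in capitals, and a match on the opposite strand appears as their reverse complement. They were chosen among members with an ISRE-like match, to show the families whose values are described further on. The order is ISG15, IFIT, OAS, tetherin, guanylate-binding proteins and immunity-related GTPases.
Isg15 (chr4:156200866-156200910, minus strand): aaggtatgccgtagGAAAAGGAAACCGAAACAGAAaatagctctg
Ifit1 (chr19:34640779-34640823, plus strand): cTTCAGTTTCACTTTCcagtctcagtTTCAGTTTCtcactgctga
Ifit3 (chr19:34583401-34583445, plus strand): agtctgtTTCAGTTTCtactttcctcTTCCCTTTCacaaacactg
Oas3 (chr5:120777710-120777754, minus strand): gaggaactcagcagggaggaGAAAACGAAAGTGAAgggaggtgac
Bst2 (chr8:71537578-71537622, minus strand): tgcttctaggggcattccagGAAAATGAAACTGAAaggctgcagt
Gbp2 (chr3:142620579-142620623, plus strand): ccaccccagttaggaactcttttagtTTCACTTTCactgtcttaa
Gbp3 (chr3:142559980-142560024, plus strand): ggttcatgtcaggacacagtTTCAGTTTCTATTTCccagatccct
Gbp7 (chr3:142530258-142530302, plus strand): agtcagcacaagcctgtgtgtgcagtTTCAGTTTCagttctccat
Igtp (chr11:58199496-58199540, plus strand): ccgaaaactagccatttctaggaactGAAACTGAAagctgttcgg
Irgm2 (chr11:58214887-58214931, plus strand): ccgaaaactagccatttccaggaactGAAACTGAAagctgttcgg
Irgm1 (chr11:48871426-48871470, minus strand): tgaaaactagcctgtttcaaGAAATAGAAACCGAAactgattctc

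In the Isg15 window 3 matches run into each other, and the nearest one begins 66 bases before the start site. The stretch of Ifit3b was identical to that of Ifit3 over all 45 bases, and those of Igtp and Irgm2 were identical at 44 of 45. All 3 guanylate-binding protein genes with a window and 3 of the 4 immunity-related GTPase genes with a window held an ISRE-like match. A GAS-like match was held by 1 of these 3 and 2 of these 4 genes. The ISRE-like letters were held by 3 of the 4 IFIT genes with a window, not by Ifit2. In the OAS family they were held by 2 of the 4 genes with a window, not by Oasl1 and Oasl2. They were also absent from the windows of Ifi47, Cmpk2, Ifi35 and Xaf1. Among the 5 transcription factors 1 held an ISRE-like match, Stat2, and 2 held a GAS-like match, Irf1 and Irf8. That of Irf1 begins 90 bases before the start site. It is shown here in capitals because Irf1 is the member with the highest level per kb in WT.
Irf1 (chr11:53769898-53769942, plus strand): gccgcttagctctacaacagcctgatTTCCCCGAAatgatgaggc
A match is a description of letters and not a measured binding site.

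Of the 40 members, 38 had a log2 difference above 0, against 50.2% of all genes tested. At an adjusted p under 0.05 the count was 0 of 40, as it was 0% over all genes tested with limma, and the members' adjusted p ran from 0.137 to 0.987. At an unadjusted p under 0.05, 19 members were higher in cKO, against 6.91% of all genes, and 0 were lower, against 7.08%. All 3 cKO libraries lay above all 3 WT libraries for 19 members, against 10.5% of all genes, and below them for 0, against 10.9%. These sets share 18 members. Irgm2 had the unadjusted p alone, and Gbp2 the separation alone. The median log2 difference of the members was 0.51, and that of all genes 0.0013.

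These counts depended on single mice. Without cKO2, 2 members, Gbp3 and Gbp7, passed an adjusted p of 0.05 in limma, as did 0.431% of all genes in that direction. In the same fit 25 were higher at the unadjusted p (8.94% of all genes) and the median was 0.67. Without cKO1, 13 members were higher at the unadjusted p, against 5.27% of all genes, and the median was 0.47. Without WT1 the count was 8, against 5.99% of all genes, and without WT3 it was 12, against 5.08%.

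**Figure D1:**
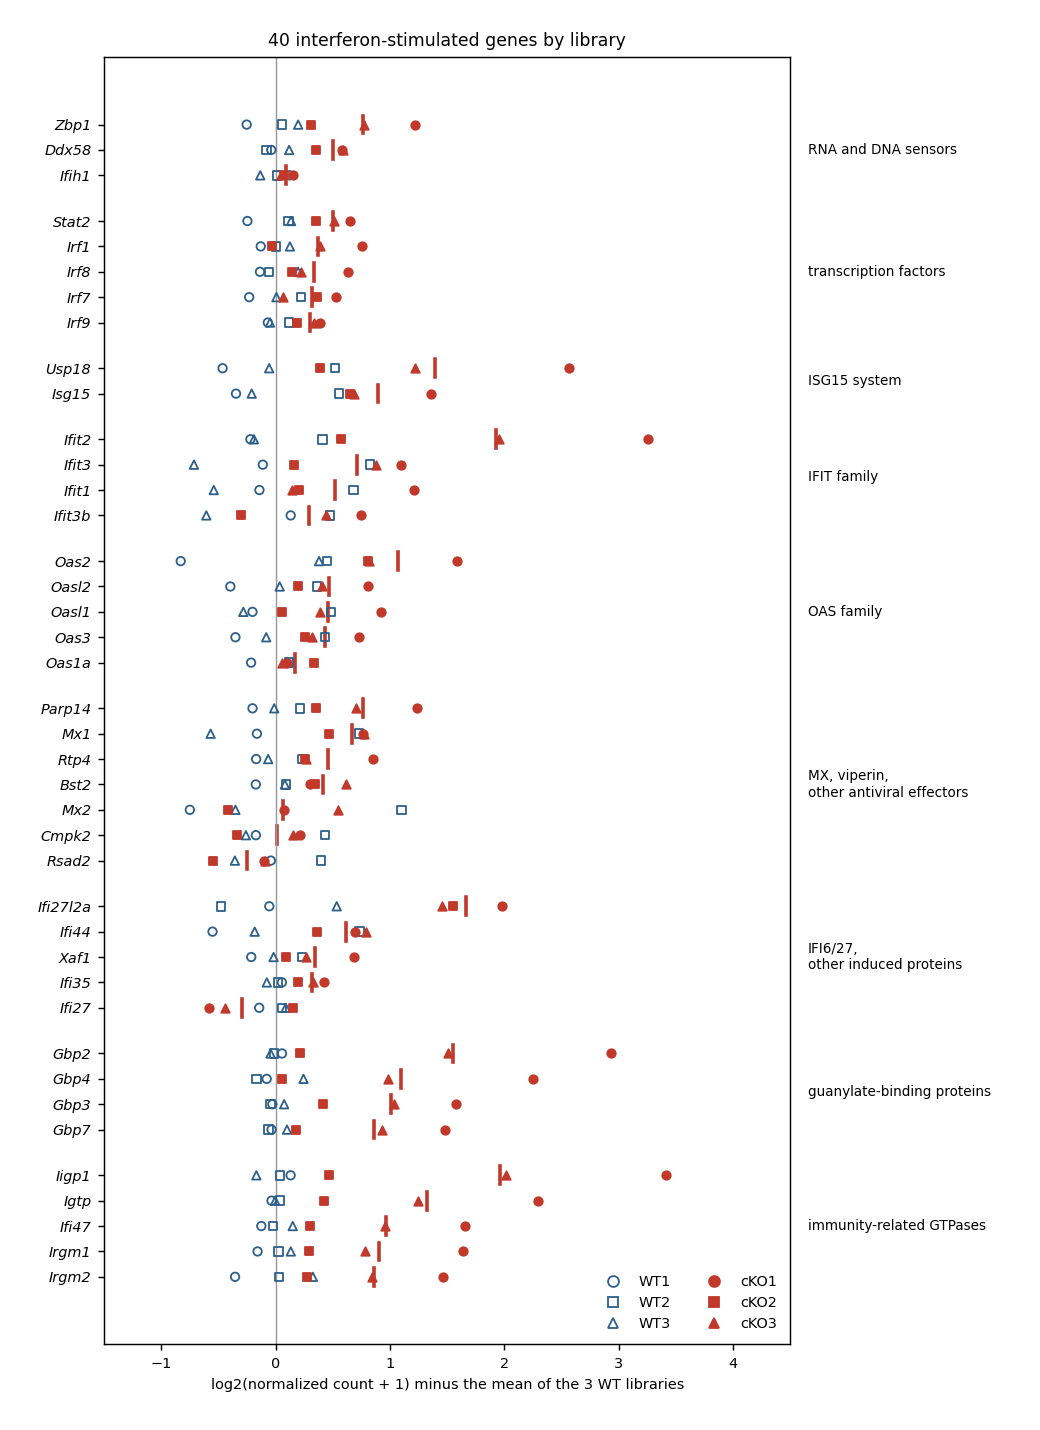
Difference of each library from the mean of the 3 WT libraries, on the scale of log2(normalized count + 1), for the 40 members grouped by role. Open blue symbols are WT libraries, filled red symbols are cKO libraries and red ticks are cKO means. The cKO1 library is the rightmost point for 31 of 40 members, and Iigp1, Gbp2 and Ifit2 have the widest spread among cKO libraries.

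The differences were not evenly spread over the 3 cKO mice. The cKO1 library had the highest value of all 6 for 31 members, cKO3 for 4 and cKO2 for 2, and WT2 had it for 3. Within cKO, cKO1 was the highest for 32 members, against 38.6% of all genes, and cKO2 was the lowest for 33 of 40. The share of all genes was not computed for the lowest within cKO or for the highest of all 6. The order cKO1 above cKO3 above cKO2 held for 28 members, which is the order of 22.9% of all genes. Taken one by one, cKO1 exceeded every WT library for 34 members (33.0% of all genes), cKO3 for 29 (28.3%) and cKO2 for 22 (29.6%). The mean log2 difference of all members from the WT mean was 1.11 in cKO1, 0.25 in cKO2 and 0.65 in cKO3. In WT1, WT2 and WT3 it was −0.18, 0.23 and −0.05, so that cKO2 lay next to WT2.

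**Figure D2:**
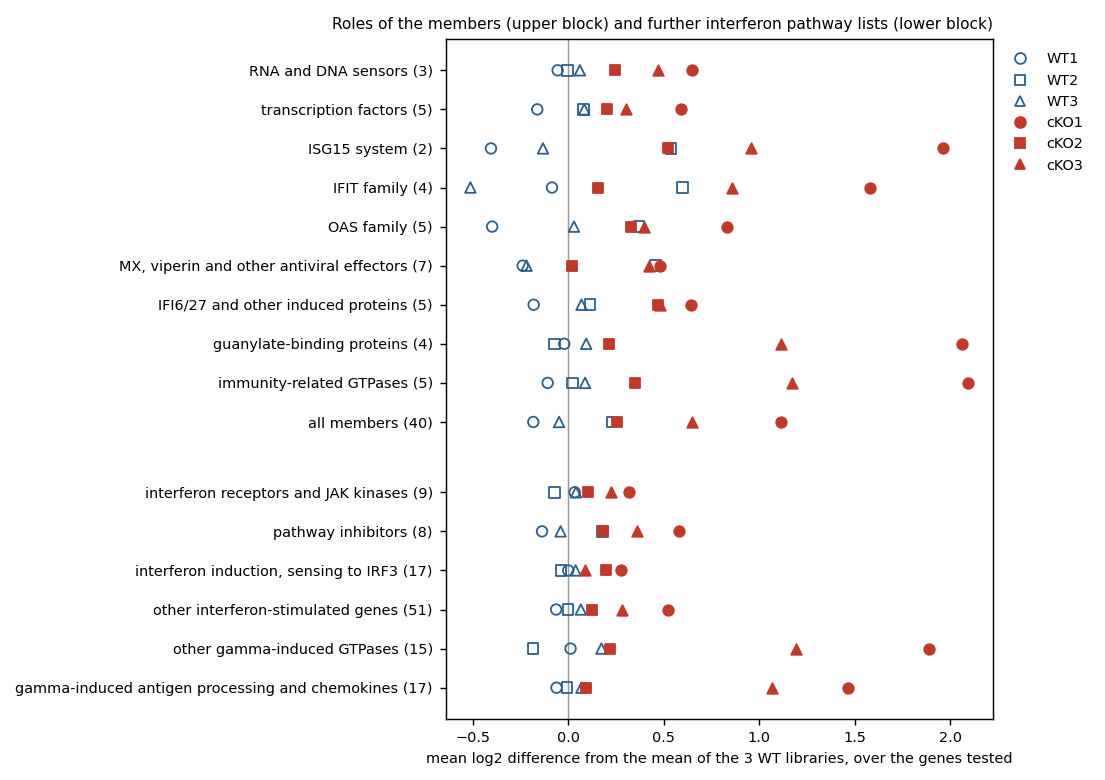
Mean log2 difference of each library from the mean of the 3 WT libraries for the 9 roles and all members (upper block) and for 6 further lists of interferon pathway genes (lower block), with the number of genes tested in brackets. In the guanylate-binding proteins and immunity-related GTPases the 3 WT libraries lie close together and the cKO libraries are spread out, whereas in the IFIT and OAS families the WT libraries are spread as well.

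The immunity-related GTPases attack the vacuoles of intracellular microbes and control membranes and autophagy in the host cell. All 5 members of this family were higher in cKO at an unadjusted p under 0.05, against 6.91% of all genes tested. The genotypes were separated for 4 of 5, against 10.5% of all genes with cKO above WT. Iigp1 is an effector that is loaded onto vacuole membranes. Its normalized count was 4782, 620.2 and 1817 in cKO1, cKO2 and cKO3 and 492, 461 and 399 in WT1, WT2 and WT3. The cKO1 value was 10.6 times the WT mean, that of cKO3 was 4.03 times and that of cKO2 1.38 times, with no overlap between genotypes. The log2 difference was 1.96 (standard error 0.72, adjusted p = 0.333, limma), the highest among the members.

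Igtp (also known as Irgm3, ENSMUSG00000078853, chr11:58199556-58207591, plus strand of GRCm38) belongs to the regulatory subgroup that holds the effectors inactive on the cell's own membranes. Its counts were 3147, 856 and 1515 in cKO1, cKO2 and cKO3 against 624, 658 and 638 in WT1, WT2 and WT3. The WT mice differed by a factor of at most 1.05 while the cKO mice spanned a factor of 3.68. Means were 1839 ± 1179 and 639.9 ± 16.8 (SD, n = 3 each), a log2 difference of 1.32 (standard error 0.46, adjusted p = 0.319, limma). Ifi47 is a further member of the effector subgroup, and read 2205, 863 and 1358 in cKO1, cKO2 and cKO3 and 643, 689 and 778 in WT1, WT2 and WT3. Its lowest cKO mouse stood above its highest WT mouse, with a log2 difference of 0.97 (adjusted p = 0.315, limma).

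Irgm1, a regulator with a role in autophagy and mitochondrial upkeep, read 3802, 1496 and 2107 in cKO1, cKO2 and cKO3 and 1096, 1244 and 1341 in WT1, WT2 and WT3. The genotypes did not overlap, and the log2 difference was 0.90 (adjusted p = 0.337, limma). Irgm2, the third regulator, had 3304, 1446 and 2149 in cKO1, cKO2 and cKO3 and 934, 1218 and 1498 in WT1, WT2 and WT3. Here cKO2 lay below WT3, so the genotypes overlapped, with a log2 difference of 0.86 (adjusted p = 0.343, limma). The annotated spans of Igtp and Irgm2 overlap by 7974 bases on the same strand, and that of Ifi47 overlaps Olfr56, so reads shared between those genes leave their values uncertain.

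Guanylate-binding proteins assemble on microbial membranes and support inflammasome activation. Gbp7, Gbp3 and Gbp2 lie on chromosome 3 of GRCm38 between positions 142530342 and 142638008, a stretch that also holds Gbp2b, which is no member. All 3 members there were separated between genotypes, against 10.5% of all genes with cKO above WT. Gbp2 read 5522, 840.2 and 2062 in cKO1, cKO2 and cKO3 and 754, 719 and 703 in WT1, WT2 and WT3. The cKO1 mouse was 7.62 times the WT mean and cKO2 1.16 times, and the log2 difference was 1.55 (standard error 0.66, adjusted p = 0.367, limma).

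Gbp3 had 966, 430.1 and 662 in cKO1, cKO2 and cKO3 and 317, 313 and 340.5 in WT1, WT2 and WT3. Among the guanylate-binding proteins its difference was the largest relative to its error, at 1.01 (standard error 0.27, adjusted p = 0.264, limma). Gbp7 had 1413, 573 and 962 in cKO1, cKO2 and cKO3 and 493, 483 and 541 in WT1, WT2 and WT3. Its genotypes did not overlap either, with a log2 difference of 0.86 (adjusted p = 0.329, limma). Without cKO2 the differences of Gbp3 and Gbp7 were 1.30 (adjusted p = 0.0326, limma) and 1.21 (adjusted p = 0.0386, limma).

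Gbp4, on chromosome 5 (chr5:105115767-105139586, minus strand), was the guanylate-binding protein whose genotypes overlapped. Its counts were 1704, 370.4 and 707 in cKO1, cKO2 and cKO3 and 338, 318 and 422 in WT1, WT2 and WT3, and the overlap came from cKO2, which lay below WT3. The log2 difference was 1.10 (adjusted p = 0.422, limma). Its span overlaps those of Gbp8 and Gbp9 on the same strand over 23774 and 23773 bases, nearly its whole length, and whether shared reads were split is not stated.

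Across the 9 GTPase members, the order cKO1 above cKO3 above cKO2 held for 9 of 9, against 19 of the other 31 members. The highest of the 3 WT mice was a median of 1.21 times the lowest for the 9 GTPases and 1.55 times for the other members, and the same ratio in cKO was 2.55 and 1.51. The GTPase values rest on cKO1 to a large part. Without that mouse the log2 differences were 1.24 for Iigp1, 0.83 for Igtp, 0.63 for Ifi47, 0.54 for Irgm1, 0.56 for Irgm2, 0.86 for Gbp2, 0.55 for Gbp7, 0.52 for Gbp4 and 0.72 for Gbp3, whose value changed least in proportion. The list of 7 neutrophil markers had the same order of mice, with mean log2 differences of 5.42, 0.83 and 2.91 in cKO1, cKO2 and cKO3 and between −0.14 and 0.21 in WT. So did the lists of 5 fibroblast markers, at 1.23, 0.45 and 0.46, and of 5 endothelial markers, at 1.02, 0.14 and 0.24. The 8 T cell markers, at 0.15, −0.18 and −0.16, and the 3 tested enteric neural markers, at −0.07, −0.94 and −0.29, had this order too. In the fibroblast and T cell lists cKO2 and cKO3 lay close together. The part of these cell types in the results was not tested.

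**Figure D3:**
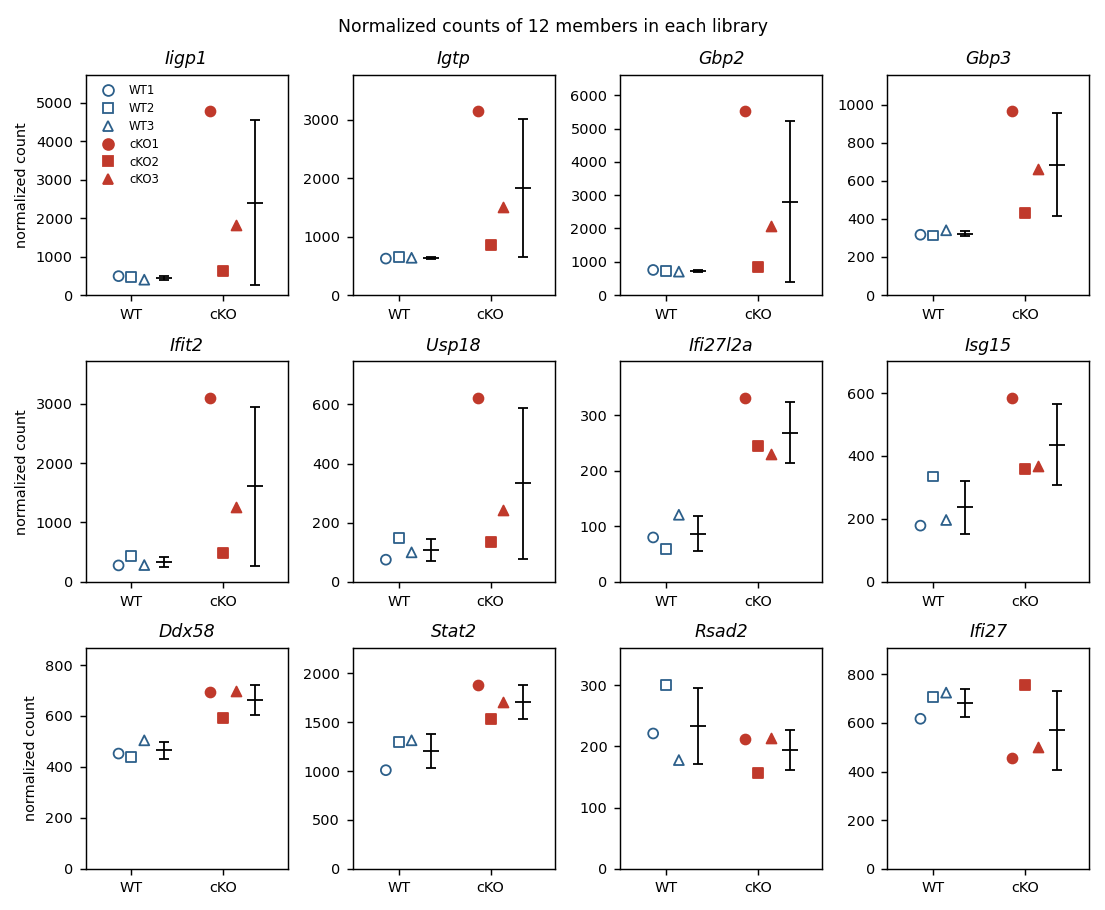
Normalized counts of 12 members in each library, with the mean and SD of each genotype (n = 3) as a bar beside the points. In Iigp1, Igtp and Gbp2 the WT mice lie within a narrow band and cKO1 lies far above cKO2. In Ddx58 and Stat2 the cKO mice lie together above WT, and in Rsad2 and Ifi27 the genotypes overlap.

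In the antiviral families the WT mice were spread as well. The IFIT proteins bind viral RNA that lacks the host's cap marks, and their 4 genes lie together on chromosome 19 between positions 34550694 and 34650009. Ifit2, which also promotes cell death, was the one of the 4 whose genotypes did not overlap, against 10.5% of all genes with cKO above WT. It read 3093, 482 and 1258 in cKO1, cKO2 and cKO3 and 278, 430.0 and 284 in WT1, WT2 and WT3, so that cKO2 was just above WT2. The log2 difference was 1.93 (standard error 0.67, adjusted p = 0.32, limma), and 1.27 without cKO1.

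Ifit1 reads the missing cap mark directly, and had 787, 390.3 and 375 in cKO1, cKO2 and cKO3 and 307, 544 and 233 in WT1, WT2 and WT3. WT2 exceeded cKO2 and cKO3, and the log2 difference was 0.52 (adjusted p = 0.594, limma). It was 0.18 without cKO1, 0.25 without WT3 and 0.86 without WT2. Ifit3, its partner, differed by 0.71 between means of 160.2 ± 49.9 in cKO and 104 ± 57.1 in WT (SD, n = 3 each). Ifit3b, its near copy, differed by 0.29 between means of 67.1 ± 23.4 and 54.7 ± 19.6, and reads shared between these copies are uncertain. Without WT2 their differences were 1.12 and 0.53, and without WT3 0.35 and −0.0097. That of Ifit3b was also 0.07 without cKO1 and 0.59 without cKO2. In the mean over the 4 genes WT2 stood at 0.60 and WT3 at −0.51, and cKO2 at 0.16 between them.

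Several enzymes of the OAS family make an oligoadenylate messenger that activates RNase L. The 5 members of the family lie in 2 groups on chromosome 5, Oasl2 with Oasl1 between 114896936 and 114937915 and Oas2, Oas3 and Oas1a between 120730333 and 120907521. Oas2 had 530.1, 309.6 and 312 in cKO1, cKO2 and cKO3 and 98.8, 241 and 229.7 in WT1, WT2 and WT3. The genotypes did not overlap, with a log2 difference of 1.07 (standard error 0.40, adjusted p = 0.331, limma), which was 0.66 without WT1. Oas1a had the highest level of the family per length, 653 normalized counts per kb in WT, and read 1314, 1549 and 1274 in cKO1, cKO2 and cKO3 and 1056, 1329.7 and 1309 in WT1, WT2 and WT3. Its genotypes overlapped and its log2 difference was 0.17 (adjusted p = 0.547, limma), and 0.06 without WT1 and 0.08 without cKO2. Oasl2, Oasl1 and Oas3 lay between them with log2 differences of 0.47, 0.46 and 0.43, and in each of these 3 genes WT2 was the highest WT mouse. Without cKO1 they were 0.30, 0.22 and 0.28. Without WT1 Oasl2 was at 0.27 and Oas3 at 0.26, and without WT2 Oasl1 was at 0.70 and Oas3 at 0.65. Their means were 1976 ± 439 in cKO and 1437 ± 368 in WT for Oasl2, 797 ± 245 and 581 ± 181 for Oasl1, and 671 ± 126 and 504 ± 144 for Oas3 (SD, n = 3 each).

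ISG15 is a ubiquitin-like modifier that is attached to newly made proteins, and USP18 removes it and blocks the type I receptor. Isg15 (ENSMUSG00000035692, chr4:156199424-156200818, minus strand of GRCm38) had 584, 358 and 367 in cKO1, cKO2 and cKO3 and 179, 335 and 197 in WT1, WT2 and WT3. The genotypes were apart, narrowly between cKO2 and WT2, with a log2 difference of 0.90 (standard error 0.29, adjusted p = 0.292, limma). Usp18 had 621, 136 and 243 and 75.1, 149 and 99.9 in the same order of mice. Its WT2 lay above cKO2, and the log2 difference of 1.39 (adjusted p = 0.362, limma) was 0.80 without cKO1.

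Among 7 further antiviral effectors, 3 were separated between genotypes, Bst2, Parp14 and Rtp4, against 10.5% of all genes with cKO above WT. Bst2 encodes tetherin, which holds budding virus on the cell surface, and had the highest level of the group per length. It read 738, 763 and 918 in cKO1, cKO2 and cKO3 and 532, 639.6 and 635 in WT1, WT2 and WT3, with cKO3 the highest. The log2 difference was 0.42 (standard error 0.12, adjusted p = 0.264, limma) and stayed at 0.48 without cKO1.

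Parp14, an ADP-ribosyltransferase, read 4617, 2505 and 3186 in cKO1, cKO2 and cKO3 and 1704, 2272 and 1943 in WT1, WT2 and WT3. Every cKO mouse exceeded every WT mouse, by a log2 difference of 0.76 (standard error 0.23, adjusted p = 0.282, limma). Rtp4, a receptor chaperone that is also a regulator of the interferon response, read 597, 395 and 398 in cKO1, cKO2 and cKO3 and 293, 389 and 316 in WT1, WT2 and WT3. The gap between cKO2 and WT2 was small, and the log2 difference of 0.46 (adjusted p = 0.343, limma) was 0.26 without cKO1.

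The other 4 effectors overlapped between genotypes. Mx1, of a family of dynamin-like GTPases that trap viral particles, had 306 ± 35.6 in cKO and 206 ± 99.6 in WT (SD, n = 3 each). The log2 difference was 0.67, and 1.03 without WT2 and 0.39 without WT3. Whether these mice make a working MX1 protein was not tested. The neighboring Mx2, annotated as a polymorphic pseudogene, was the lowest member per length, with means of 40.5 ± 13.6 in cKO and 43.9 ± 32.3 in WT. Its mean was thus lower in cKO while its log2 difference was 0.07, with a direction that turned when cKO3, WT1 or WT3 was left out. Rsad2 encodes viperin, which makes a chain-terminating nucleotide, and read 212, 156 and 214 in cKO1, cKO2 and cKO3 and 221, 300.5 and 178 in WT1, WT2 and WT3. It was 1 of the 2 members with a difference below 0, at −0.25 (adjusted p = 0.629, limma), and was at −0.048 without WT2, −0.099 without cKO2 and −0.43 without WT3. Cmpk2, a nucleotide kinase encoded beside Rsad2 on chromosome 12, had means of 312 ± 61.7 in cKO and 312 ± 86.6 in WT and a log2 difference of 0.01, which changed sign when cKO1, cKO3, WT1 or WT3 was left out.

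WT2 often had the highest value among WT in these families. It was the highest of the 3 WT mice for 22 of the 31 other members and for 1 of the 9 GTPases, and for 34.1% of all genes. Without WT2, 29 members were separated between genotypes, against 15.2% of all genes, and the median of all members was 0.75. The separated count cannot fall when a library is left out. The smooth muscle marker list was highest in WT2 for 5 of 5 genes, with a summed normalized count of 20409 there, 8829 in WT1 and 4790 in WT3, and 5373 to 10562 in cKO. Its part in these values was not tested.

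Sensors of foreign nucleic acid start the interferon response and are themselves induced by it. Ddx58 encodes RIG-I, a detector of viral RNA ends, and had 694, 593 and 698 in cKO1, cKO2 and cKO3 and 452, 439 and 504 in WT1, WT2 and WT3. The cKO mice lay together here, and all were above WT, by a log2 difference of 0.51 (standard error 0.11, adjusted p = 0.192, limma). It was 0.47 without cKO1 and 0.58 without cKO2.

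Zbp1 recognizes Z-form nucleic acid and can trigger necroptosis. It read 2364, 1264 and 1738 in cKO1, cKO2 and cKO3 and 854, 1058 and 1167 in WT1, WT2 and WT3, again without overlap, and differed by 0.77 (standard error 0.24, adjusted p = 0.291, limma). Ifih1 encodes MDA5, the sensor of long double-stranded RNA, and its means of 1667 ± 64.3 in cKO and 1569 ± 139 in WT (SD, n = 3 each) overlapped, with a log2 difference of 0.09 that ran from 0.023 to 0.15 with 1 mouse left out.

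Of the transcription factors, Stat2 and Irf9, which act together in the complex that binds the ISRE, were both separated. Stat2 read 1879.7, 1529 and 1708 in cKO1, cKO2 and cKO3 and 1009, 1294 and 1315 in WT1, WT2 and WT3, a log2 difference of 0.50 (standard error 0.13, adjusted p = 0.215, limma). Irf9 read 1277, 1111 and 1237 in cKO1, cKO2 and cKO3 and 932, 1059.8 and 945 in WT1, WT2 and WT3, a log2 difference of 0.30 (standard error 0.09, adjusted p = 0.278, limma). Both differences were small and so was the spread within each genotype. Irf1, the factor that acts early after interferon gamma, had the highest WT level of all members per length, 843 normalized counts per kb, and read 5653, 3276 and 4361 in cKO1, cKO2 and cKO3 and 3054, 3353 and 3645 in WT1, WT2 and WT3. The cKO2 mouse lay within the WT range, and the log2 difference of 0.37 (adjusted p = 0.422, limma) was 0.18 without cKO1 and 0.57 without cKO2. Irf8, a factor of myeloid cells, and Irf7, the amplifier of type I interferon production, overlapped between genotypes and differed by 0.33 and 0.32, with 0.18 for Irf8 without cKO1 and 0.20 for Irf7 without WT1. The means were 2823 ± 537 in cKO and 2226 ± 275 in WT for Irf8, and 1452 ± 233 and 1163 ± 182 for Irf7 (SD, n = 3 each).

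The 5 remaining members encode IFI27, a relative of it and other induced proteins. Ifi27l2a (ENSMUSG00000079017, chr12:103442167-103443680, minus strand of GRCm38), a small hydrophobic protein of the IFI27 family, had the lowest adjusted p of the members, 0.137 in limma. Its counts were 331, 245 and 230.0 in cKO1, cKO2 and cKO3 and 80.0, 59.4 and 121 in WT1, WT2 and WT3. All cKO mice, cKO2 included, were at 2.65 to 3.81 times the WT mean, and the log2 difference was 1.66 (standard error 0.28). It ranged from 1.41 to 1.93 over the 15 alternatives tried.

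Its neighbor Ifi27 (chr12:103434211-103440239, plus strand) lies on the opposite strand and had a difference below 0. Ifi27 read 454, 756 and 501 in cKO1, cKO2 and cKO3 and 617, 708 and 725 in WT1, WT2 and WT3. The cKO2 mouse was the highest of all 6 and cKO1 the lowest, and the log2 difference was −0.29 (adjusted p = 0.503, limma). It was −0.15 without cKO1 and −0.51 without cKO2. Ifi35, a partner of NMI, read 511, 437 and 478 in cKO1, cKO2 and cKO3 and 395, 386 and 360.5 in WT1, WT2 and WT3, apart between genotypes with a log2 difference of 0.32 (standard error 0.11, adjusted p = 0.292, limma). Ifi44 and Xaf1, an antagonist of the inhibitor of apoptosis XIAP, overlapped, with log2 differences of 0.62 and 0.35. That of Ifi44 was 0.34 without WT1 and 0.98 without WT2, and that of Xaf1 0.18 without cKO1. The means of Ifi44 were 185 ± 27.5 in cKO and 128 ± 62.3 in WT, and those of Xaf1 279 ± 61.0 and 217 ± 33.8 (SD, n = 3 each).

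**Figure D4:**
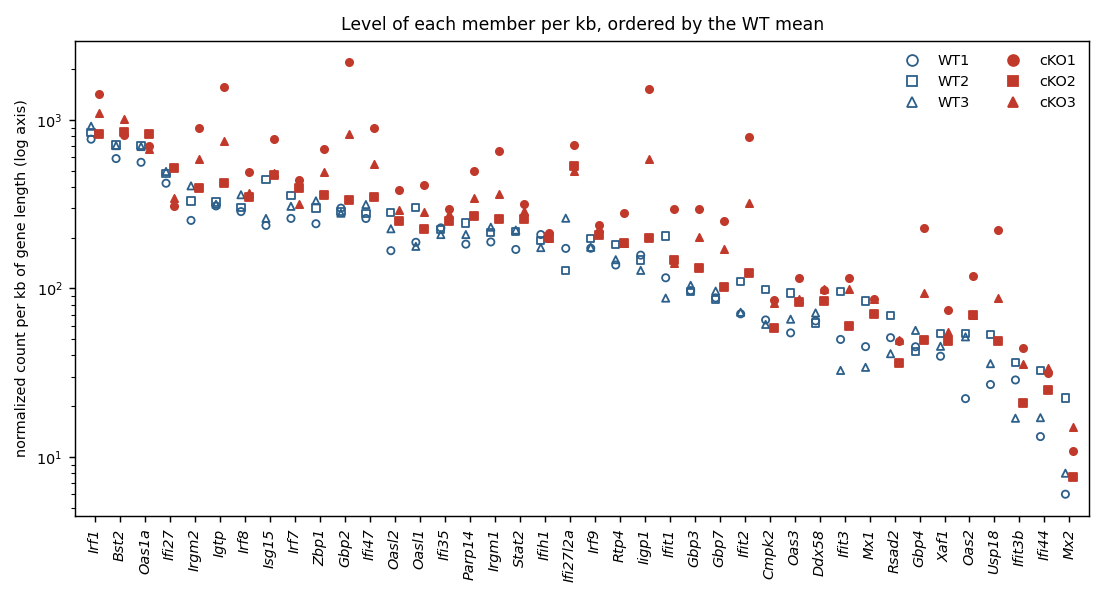
Normalized count per kb of gene length, on a log axis, of each member in each library, ordered by the WT mean. Open blue symbols are WT and filled red symbols are cKO. Levels in WT run from 843 per kb in Irf1 to 12.1 in Mx2, and Igtp, Gbp2, Iigp1 and Ifit2 in cKO1 lie well above their neighbors in this order.

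Levels of the members differed widely within the same tissue. Per kb of gene length, the WT means were 843 normalized counts for Irf1, 667 for Bst2, 653 for Oas1a and 466 for Ifi27 at the top. Mx2 was at 12.1, Ifi44 at 20.9, Ifit3b at 27.3 and Usp18 at 38.7 at the bottom. The 4 genes at the top had log2 differences between −0.29 and 0.42, and those of the 4 at the bottom ran from 0.07 to 1.39.

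The rest of the pathway was read through lists of genes outside the members. Of 21 interferon ligands 2 were in the table and neither passed the filter on low values. Ifng was at 13.4, 3.32 and 7.22 normalized counts in cKO1, cKO2 and cKO3 and at 3.95, 2.70 and 0 in WT1, WT2 and WT3. Ifnb1 and the interferon alpha genes were not analysed here. Among 9 receptor and JAK kinase genes, all 9 had a log2 difference above 0 with a median of 0.22, and 1 of 9, the gamma receptor chain Ifngr2, was higher at the unadjusted p, against 6.91% of all genes. That count was 4 without cKO2, 2 without cKO3 and 2 without WT1, where 8.94%, 4.93% and 5.99% of all genes were higher.

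Of 8 pathway inhibitors, 7 had a log2 difference above 0 with a median of 0.19, and 1 was higher and 1 lower at the unadjusted p, where 6.91% of all genes were higher and 7.08% lower. The one higher was Socs3 (1.74), which restrains JAK kinases and is itself a target of STAT3, and the one lower was Cish (−0.72), a target of STAT5. Of 17 tested genes of interferon induction, from nucleic acid sensing to IRF3, 7 were higher and 1 was lower, with a median of 0.22. With 1 mouse left out 2 to 6 were higher, against 4.91% to 8.94% of all genes, and 0 to 3 lower, against 4.53% to 8.77%. The median was 0.10 without cKO2. The one lower was Mb21d1, which encodes the DNA sensor cGAS (−0.65), and among those higher were Ifi204 (1.19), Dhx58 (0.35), Irf5 (0.43) and Tlr3 (0.34). None of these differences passed the adjusted p in limma. Array weights let limma weigh each library by its fit to its group. With them 1 of the 9 receptor and kinase genes and 1 of the 17 genes of induction passed, against 1.61% of all genes higher. Without cKO2 1 of the 17 passed, against 0.431%.

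Interferon-stimulated genes outside the members were higher in part. Of 51 tested, 20 were higher at the unadjusted p, against 6.91% of all genes, and 0 lower, against 7.08%. The median log2 difference was 0.26, and 23 were separated above WT, against 10.5% of all genes. With 1 mouse left out 9 to 24 were higher, against 4.91% to 8.94% of all genes. The ADP-ribosyltransferase Parp9 (0.70), the ubiquitin ligase Rnf213 (0.73), the lectin Lgals9 (0.79), the helicase Ddx60 (0.79) and Trafd1 (0.55) had the smallest p. Among 15 further gamma-induced GTPases 8 were higher and 1, Gbp2b (−1.01), was lower, against the same 6.91% and 7.08% of all genes. Their median was 1.42, and 0.64 without cKO1. With 1 mouse left out 2 to 12 of these were higher, against 4.91% to 8.94% of all genes. Tgtp1 (1.75), Tgtp2 (1.60), Gm12250 (1.51), Gbp6 (1.05) and Gvin1 (0.76) had the smallest p, and Tgtp1 and Tgtp2 are near-identical copies whose shared reads are uncertain. Of 17 genes of antigen processing and gamma-induced chemokines 11 were higher (6.91% of all genes) and 0 lower (7.08%), with a median of 0.43. The count was 4 without cKO3 (4.93% of all genes) or WT1 (5.99%), and 6 without cKO1 (5.27%). It was 16 without cKO2 (8.94%), where the median was 0.67, and 6 without trend and robust settings (6.29%). The immunoproteasome subunits Psmb9 (0.54) and Psmb8 (0.35), the proteasome activator Psme2 (0.60), the peptide transporter Tap2 (0.30) and the class I regulator Nlrc5 (0.43) had the smallest p. At the adjusted p 0 genes of these 3 lists passed in limma. Without cKO2, 3 of 51, 1 of 15 and 5 of 17 passed, against 0.431% of all genes, and with array weights 6, 2 and 4 passed, against 1.61%.

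**Figure D5:**
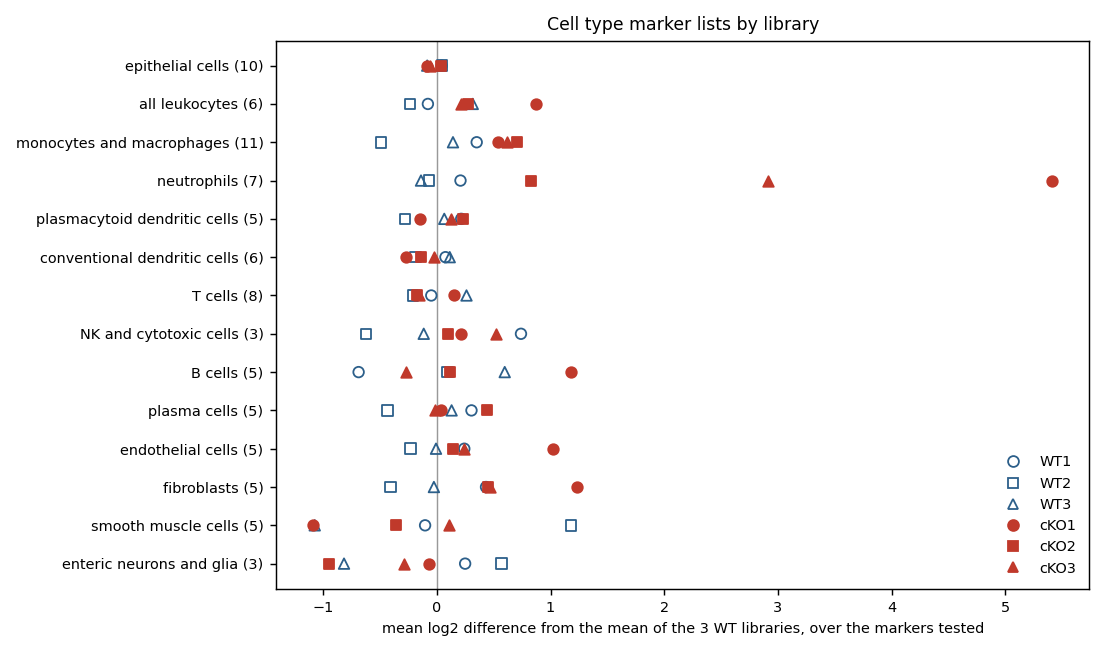
Mean log2 difference of each library from the mean of the 3 WT libraries for 14 lists of cell type markers, with the number of markers tested in brackets. The neutrophil list is far to the right in cKO1 and cKO3, the epithelial list lies within 0.1 of the WT mean in every library, and the smooth muscle list is highest in WT2.

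Markers of cell types that respond to interferon were measured beside the members. Over all genes 6.91% were higher and 7.08% lower at the unadjusted p. The 10 epithelial markers were high in every library, with 0 of 10 past the unadjusted p in either direction and summed normalized counts of 251140 to 272668 in WT and 235477 to 267864 in cKO. Of the monocyte and macrophage markers all 11 had a difference above 0 and 5 were higher at the unadjusted p, with sums of 5495 to 9140 in WT and 9815 to 11499 in cKO. Of the 7 neutrophil markers 6 were above 0, 3 were higher and 1, Ly6g, was lower, and Cxcr2 was listed at 0 in WT1 and WT3. Most of the summed count in WT was that of Ly6g, with sums of 2970 to 3234 over all 7 markers. Over the other 6 the sums were 140.2, 98.1 and 127 in WT1, WT2 and WT3 and 7155, 157 and 1035 in cKO1, cKO2 and cKO3, and with Ly6g the cKO sums were 2989 to 9641. Leukocyte markers summed to 5417 to 7643 in WT and 7035 to 10822 in cKO, with 1 of 6 higher. The 8 T cell markers showed 0 past the unadjusted p, with sums of 638 to 898 in WT and 662 to 816 in cKO, and the fibroblast markers 2 of 5 higher, with sums of 6007 to 9775 and 11133 to 22688. Of 5 plasmacytoid dendritic cell markers tested 2 were higher, while 2 others had a log2 difference below 0, and the range was −0.73 to 0.77. The mean log2 difference of these 5 was −0.15 in cKO1, 0.23 in cKO2 and 0.13 in cKO3. Siglech and Cox6a2, also on this list, fell below the filter on low values. Their means were 9.29 and 2.70 in cKO and 5.95 and 2.32 in WT. The lists of conventional dendritic, NK, B, plasma, endothelial, smooth muscle and enteric neural cells had 0 past the unadjusted p in either direction. The part of these cell types in the members' values was not tested.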

How the data were processed

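Colon RNA of 3 cKO (Nedd4l fl/fl Villin Cre) and 3 WT (Nedd4l fl/fl) mice, all given 2% DSS, was measured by RNA-seq. The submitters' processing notes name HISAT2 2.0.5, featureCounts 1.5.0-p3 and the human build hg18, although the table lists mouse genes. The authors deposited normalized counts, a signal in which the reads of a gene are scaled by a size factor for each library. Of the 27164 genes with an identifier in GENCODE release M21 (GRCm38), 97.2% had the coordinates given there. All values of a library were whole multiples of its smallest value within 0.01 of a step, and the steps lay between 0.90 and 1.11. Whether counting used strand, or how shared reads were treated, is not given in the sources used here. The authors' genotype means, log2 fold changes, p-values and adjusted p-values, which stand in the same table, were not used.

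The 16246 genes whose mean reached 10 were tested on the scale of log2(value + 1) with limma 3.58.1 (R 4.3.3), using lmFit, then eBayes with its trend and robust options, and p-values were adjusted by Benjamini-Hochberg and called at 0.05. Fits of a count model were planned and not run, because a check for whole reads did not accept WT3. Its step of 0.9985 was too close to 1 for that check. The script was tested on simulated data. Levels per kb were divided by the gene length in the table. Promoter windows came from RefSeq, and matplotlib 3.10.9 (Python 3.11.15) was used for plots. The members, their roles, the pathway lists, the markers and the rule for named genes (members with an unadjusted p under 0.05, with separated genotypes or with the highest level per kb in a role, and the 5 pathway genes with the smallest p in each list) were chosen with earlier results of these data known. Cxcl9, Cxcl10, Socs1, Ido1, Gbp2b, Ly6g and Cxcr2 were named after their values were seen. Promoter sequences of Gbp4, Ifi27, Ifi27l2a, Iigp1, Mx1, Mx2, Oas2, Parp14, Rtp4, Usp18 and Zbp1 were not used here. One gene of the receptor and kinase list is not reported here.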

Additional observations from a re-analysis of the deposited data

How the results depend on the processing

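With 3 mice per genotype and no member past the adjusted p, single mice and library weights set most counts. The 5 alternatives in pseudocount, stricter filter, quantile normalization and scaling to equal library totals, the last chosen after seeing the data, gave 0 members past the adjusted p in limma, as did fits without trend and robust settings. Without a filter on low values 1 member passed, Ifi27l2a (adjusted p = 0.0344, limma), against 7 of 27202 genes higher. With array weights, which gave cKO3 a weight of 4.39 against 0.41 for cKO1 and 0.56 for cKO2, 7 passed (Bst2, Ddx58, Gbp3, Ifi27l2a, Irf9, Parp14 and Stat2), against 1.61% of all genes higher and 2.27% lower, and 1 member was lower at the unadjusted p, against 13.1%. Leaving out 1 mouse at a time gave 0 to 2 members at the adjusted p, 8 to 25 higher and 0 to 1 lower at the unadjusted p, 19 to 29 separated above and 0 to 1 separated below, and a median between 0.42 and 0.75. Over all genes these shares were 0% to 0.431% higher at the adjusted p, 4.91% to 8.94% higher and 4.53% to 8.77% lower at the unadjusted p, 14.6% to 18.5% separated above and 14.4% to 19.1% below. Leaving out a library cannot undo a separation, so the members' separated counts could not fall below those with every library kept. In 599 comparisons of members' log2 differences with alternatives, 8 reversed. Without WT3 these were Ifit3b (−0.0097), Mx2 (−0.11) and Cmpk2 (−0.12), without WT1 Mx2 (−0.31) and Cmpk2 (−0.076), without cKO3 Mx2 (−0.17) and Cmpk2 (−0.061), and without cKO1 Cmpk2 (−0.093). With 1 mouse left out these members ranged up to 0.59 (Ifit3b), 0.62 (Mx2) and 0.23 (Cmpk2). Nedd4l passed the adjusted p with array weights (log2 difference −1.09) and without cKO2 (−1.28), and with 1 mouse left out it ranged from −1.28 to −0.79. The cause of these changes was not tested. Same-numbered libraries did not deviate together (correlations −0.029, −0.090 and −0.056). The deviations were taken from the mean of 3 libraries per genotype, so these values cannot tell whether the mice were paired. With the replicate number as a block 0 members passed the adjusted p and 19 were higher at the unadjusted p, against 7.41% of all genes. The planned TMM scaling, edgeR and DESeq2 fits were not run.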

Other observations

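Some genes induced by interferon gamma, outside the members, also differed widely between the cKO mice, and they were picked after their values were seen. Ido1, the enzyme that breaks down tryptophan, read 3551, 31.0 and 1310.0 normalized counts in cKO1, cKO2 and cKO3 and 11.9, 15.3 and 18.0 in WT1, WT2 and WT3. Its genotypes did not overlap, and the log2 difference was 5.06 (standard error 1.74, adjusted p = 0.316, limma). Cxcl9, which attracts T cells, read 1127, 157 and 493 in cKO and 112, 99.9 and 106 in WT in the same order of mice, a log2 difference of 2.06 (adjusted p = 0.314, limma). Cxcl10, a chemokine for the same receptor, read 600.1, 90.7 and 207 in cKO and 68.1, 115 and 44.9 in WT, so that WT2 exceeded cKO2. Socs1, which shuts off JAK kinases after interferon gamma, read 668, 174 and 352 in cKO and 91.8, 223 and 138 in WT. In these 4 genes cKO1 was the highest library and cKO2 the lowest of the cKO group.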
